A study of Mus musculus with 20 samples.

Results

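Heat shock genes of the mouse kidney were followed through ischemia and reperfusion injury (IRI), with and without a protective pretreatment. The set held 10 genes, taken by gene name from the probe annotation of the arrays, out of 27827 gene names measured: Hspa1a and Hspa1b, the inducible HSP70 pair; Hspa8, the constitutive HSP70; the small heat shock proteins Hspb1 and Hspb8; the mitochondrial chaperonin pair Hspd1 and Hspe1; the HSP70 partners Dnajb1 and Bag3; and Hsf1, the transcription factor of the response. They were read by 18 of 41174 probes. Kidney RNA came from male C57BL/6 mice of 8 to 12 weeks, with 4 arrays in each of 5 groups. Control mice had no surgery and no drug, and the labels name no sham-operated or vehicle group. IRI mice had both renal pedicles clamped for 45 min and were killed after 6 h of reperfusion. IRI+Hemin mice were given Hemin at 25 mg/kg into the peritoneum 24 h before that surgery. IPC+IRI mice were preconditioned (IPC) by 15 min of clamping 7 days before the same IRI, and Hemin mice had the drug without surgery. No time from the drug to kidney removal is given for Hemin mice, so the Hemin groups may differ in it. The questions were how injury changed these genes and how each pretreatment changed that response.

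Heat shock proteins are chaperones: they hold unfolded proteins, refold them or hand them over for breakdown. When proteins unfold, HSF1 is released from chaperones, binds heat shock elements (alternating GAA and TTC units) before its target genes and raises their transcription. HSP70 works in a cycle in which J proteins such as DNAJB1 load it with clients and exchange factors such as BAG3 release them, while the small heat shock proteins hold clients without using ATP. In the kidney, ischemia is known to induce HSP70 and HSP27 in the tubules.

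All 18 probes were well above background on all 20 arrays, and none was saturated or removed, so each of the 10 genes entered every test. Levels are given as log2 of the background-subtracted signal over the array's own 75th percentile, so that 0 is that percentile, and where a gene had several probes their linear signals were averaged, which lets the brightest probe weigh most. Levels of different genes are not compared, because probes differ in brightness. Each group was hybridised on 1 slide of its own, and the slides were scanned on 3 days: Control and IRI on the first, IRI+Hemin on the second, and IPC+IRI and Hemin on the third. Group and slide cannot be told apart in these data, and IRI against Control is the 1 comparison with Control that lay within 1 scan day. In whole kidney, a change of RNA per cell and a change in the number of cells cannot be told apart either.

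The tissue was kidney by its markers, Umod, Slc34a1, Lrp2, Slc12a3 and Aqp2 being well above background on all arrays, and Ckm of skeletal muscle and Cyp11b2 of the adrenal on none. The 1 adrenal marker that could be tested, Star, a cholesterol carrier of steroid synthesis, was low, with means of -4.96 in Control and -4.48 in Hemin, and was higher than Control in IRI (-4.07), IPC+IRI (-3.62) and IRI+Hemin (-3.61), and higher in IRI+Hemin than in Hemin. The summed level of the 2 adrenal markers measured, of 3 listed, was -4.82 to -4.30 in Control, -4.18 to -3.79 in Hemin, -4.21 to -3.52 in IRI, -3.98 to -2.79 in IRI+Hemin and -3.54 to -3.28 in IPC+IRI. Of the 4 muscle markers 2 could be tested in IRI+Hemin against IRI and 1 was higher, the summed level being -2.75 to -1.96 against -3.41 to -2.93. The summed level of the 5 leukocyte markers measured, of 6 listed, was -0.78 to -0.27 in Control, -0.61 to 0.90 in Hemin, 1.81 to 3.14 in IRI, 1.38 to 3.40 in IRI+Hemin and 2.72 to 4.32 in IPC+IRI, and 3 of the 4 that could be tested were higher in IRI than in Control. The sum was taken on linear signals, so S100a9, the brightest of them, weighed most. Its means were -1.72 in Control, 1.96 in IRI and 3.23 in IPC+IRI. Ptprc was at -2.87, -2.86 and -2.22 in these groups, and Cd68 at -2.53, -0.3 and -1.12. Of the 5 leukocyte markers, 1 was higher and 1 lower in IPC+IRI than in IRI. The part of these markers in the results was not tested. Fat markers (Adipoq, Plin1, Cidec) varied between arrays of 1 group. Their summed level in Control was 3.85 in replicate 2 and -2.55 to -1.96 in the other arrays, and replicate 2 was also the Control array on which 9 of the 10 genes were highest and Hsf1 lowest. Its erythrocyte markers summed to 7.13, against 4.98 to 5.60 in the other Control arrays. Calls against Control that changed without this array are given with and without it.

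The probe sequences show what each value could read. Both Hspa1b probes (mm9, minus strand, chr17:35095608-35095667 and chr17:35094200-35094259) list transcripts of Hspa1b and of Hspa1a in the array's annotation, so the Hspa1b value is that of the pair. The Hspa1a probes (chr17:35106796-35106855 and chr17:35106766-35106825) list Hspa1a alone and share 30 bases, so they are not independent readings. The remaining sequences are of probes on which results below turn, Hspb1 by its single probe (chr5:136364927-136365114), and Dnajb1 (chr8:86134225-86134284), Bag3 (chr7:135683809-135689775, across 5967 bases of genome), Hspd1 (chr1:55135463-55135522) and Hsf1 (chr15:76330532-76330592) by a probe that differed from another of the same gene. The Bag3 and Hsf1 probes shown list no RefSeq transcript in the array's annotation, unlike the other probes of these genes.
Hspa1b, first probe: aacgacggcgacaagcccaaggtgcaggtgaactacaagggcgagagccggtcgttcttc
Hspa1b, second probe: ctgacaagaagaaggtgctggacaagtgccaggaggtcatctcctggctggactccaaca
Hspb1: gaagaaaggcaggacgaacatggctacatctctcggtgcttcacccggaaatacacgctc
Dnajb1: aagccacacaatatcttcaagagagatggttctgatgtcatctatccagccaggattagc
Bag3: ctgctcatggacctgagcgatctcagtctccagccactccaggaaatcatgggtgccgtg
Hspd1: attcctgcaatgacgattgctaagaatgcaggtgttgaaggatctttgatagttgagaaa
Hsf1: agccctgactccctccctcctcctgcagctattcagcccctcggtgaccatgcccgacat

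The bases before the gene starts are shown in full for the genes that rose with injury and hold a pair of heat shock element units. RefSeq sequence (GRCm38.p6) was given for 10 starts of 8 of the genes, Hspa8 and Hsf1 having no entry, and was searched over the 250 bases before each start for a pair of units, GAANNTTC or TTCNNGAA, both of which read the same on either strand, and for 3 alternating units in a row, which contain such pairs. Pairs were found before Hspa1a, Hspa1b, Hspb1, Hspd1 and Hspe1, that is 5 of the 8 genes and 5 of their 10 starts, while 12.8% of all 32851 starts held one. These 5 are not separate hits. The Hspa1a and Hspa1b stretches are near copies, and Hspd1 and Hspe1 share the same bases. The longest run before Hspa1a, Hspa1b and Hspb1 was 2 units. The letters were not found in the windows of Hspb8, Dnajb1 and Bag3. The stretches before Hspa1a (minus strand, chr17:34972157-34972406) and Hspa1b (minus strand, chr17:34959239-34959488) differed at 3 of 250 positions, and Hspb1 lies on the plus strand (chr5:135887669-135887918). Capitals mark the pairs.
Hspa1a: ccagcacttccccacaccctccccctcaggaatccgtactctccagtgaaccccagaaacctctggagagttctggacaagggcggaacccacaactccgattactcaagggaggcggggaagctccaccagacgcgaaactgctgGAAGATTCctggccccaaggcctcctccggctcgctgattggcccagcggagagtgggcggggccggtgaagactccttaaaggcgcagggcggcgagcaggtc
Hspa1b: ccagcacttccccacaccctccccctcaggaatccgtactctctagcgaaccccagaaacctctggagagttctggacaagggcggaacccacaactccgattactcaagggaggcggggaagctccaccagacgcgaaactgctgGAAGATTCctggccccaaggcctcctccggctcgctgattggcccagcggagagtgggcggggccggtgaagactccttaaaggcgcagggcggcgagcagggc
Hspb1: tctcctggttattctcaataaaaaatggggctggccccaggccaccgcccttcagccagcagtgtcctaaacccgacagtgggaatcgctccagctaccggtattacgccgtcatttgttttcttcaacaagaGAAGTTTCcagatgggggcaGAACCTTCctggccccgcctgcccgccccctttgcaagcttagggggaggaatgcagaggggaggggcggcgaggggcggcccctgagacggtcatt

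Hspd1 and Hspe1 lie head to head on chromosome 1 and share 1 run of 4 alternating units between their starts (plus strand, chr1:55088054-55088081). A run of at least 3 units stood in 0.466% of all windows. Capitals mark the units.
Hspe1 and Hspd1: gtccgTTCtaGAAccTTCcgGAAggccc

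After ischemia and reperfusion the inducible HSP70 pair, both small heat shock proteins and Bag3 were higher than in Control. The constitutive HSP70 and the mitochondrial pair were not called under the main scaling, while under other scalings Hspa8 and Hspe1 were called lower, with values given below. Of the 10 genes, 5 were higher in IRI than in Control and 1, Hsf1, was lower (limma, adjusted p below 0.05), while 17.0% of the 17711 genes tested were higher and 33.7% lower. On the log2 scale their median change was 0.46, beside -0.17 over all genes tested, and the single values ran from -0.44 to 2.60.

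**Figure D1:**
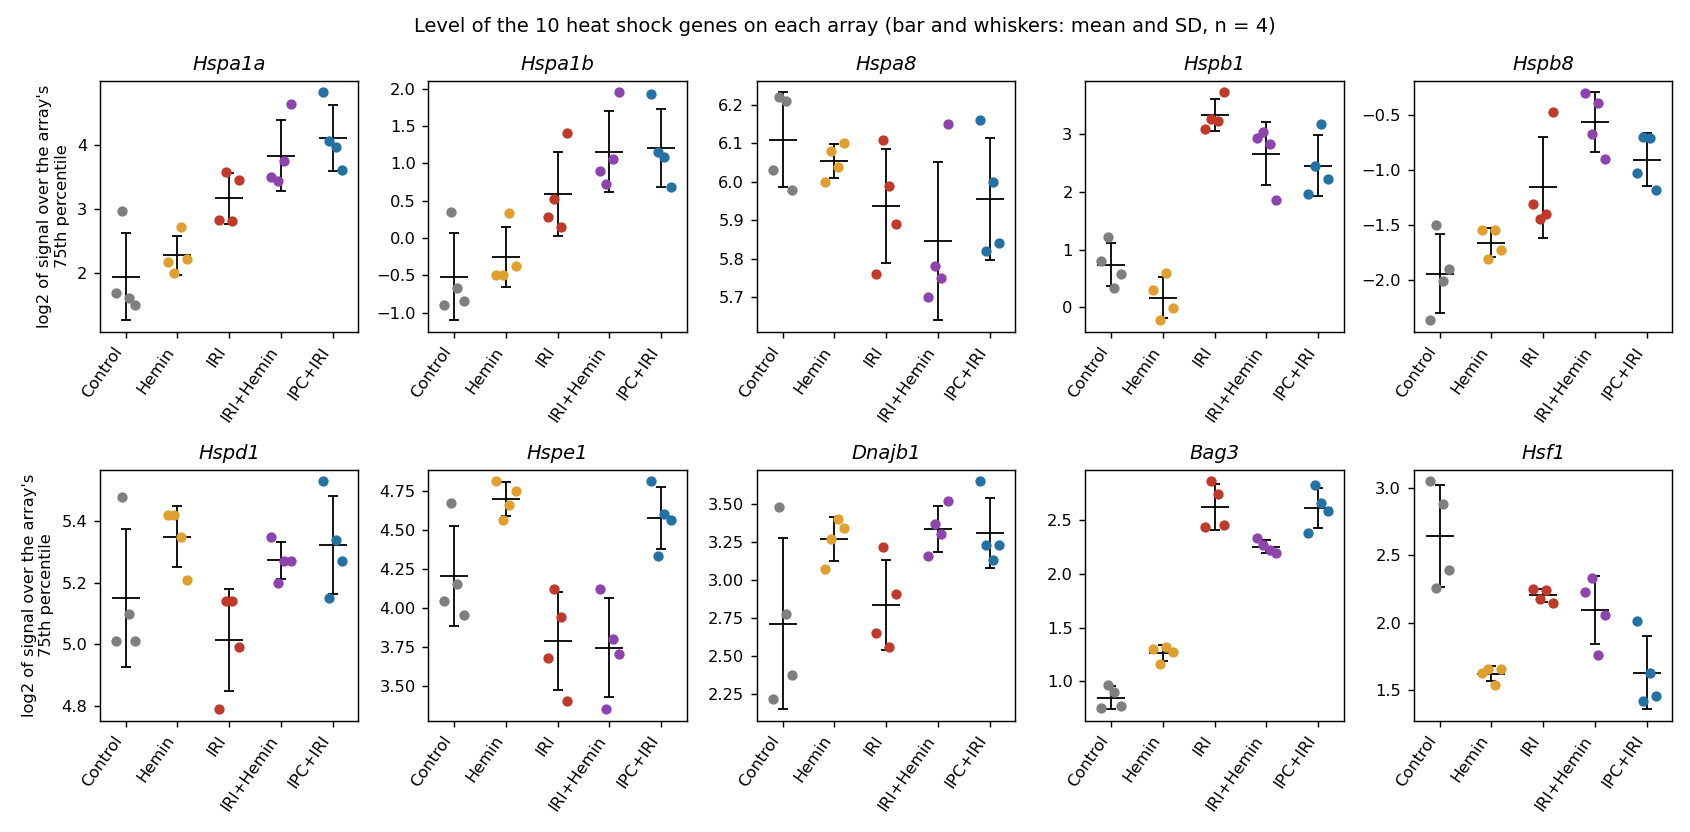
Level of each gene on each of the 20 arrays, as log2 of the signal over the array's 75th percentile (vertical axis, a separate scale for each gene), by group; points are arrays and the bar with whiskers is the mean and SD of 4. Hspb1 and Bag3 were at 1.86 or more on every array after ischemia and at 1.32 or less on every array without it, while Hsf1 was lowest in Hemin and IPC+IRI.

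Hspa1a, the inducible HSP70, was at 1.68, 2.96, 1.61 and 1.5 in Control and at 2.82, 3.57, 2.81 and 3.45 in IRI. Control replicate 2 lay above 2 of the IRI arrays, so the groups overlapped through that array. The log2 fold change was 1.23 ± 0.34 (SE, n = 4 and 4; 2.34-fold, adjusted p = 0.00563), and 1.57 without Control replicate 2 (adjusted p = 0.000507). After preconditioning the arrays read 4.82, 4.06, 3.96 and 3.60, each above all 4 IRI arrays. IPC+IRI exceeded IRI by 0.95 ± 0.34 (1.93-fold, adjusted p = 0.0299) and Control by 2.17 ± 0.34 (4.51-fold, adjusted p = 4.02e-05). The step over IRI lost its call when IRI replicate 1 or IRI replicate 3 was left out, with 0.83 each time (adjusted p = 0.0810 and 0.0832), when IPC+IRI replicate 1 was left out (0.71, adjusted p = 0.106), and when the array highest in fat markers was left out of every group (0.85, adjusted p = 0.0656). In IRI+Hemin the values were 3.50, 3.44, 3.74 and 4.64, higher than Control by 1.89 ± 0.34 (adjusted p = 0.000136), with a difference from IRI of 0.67 ± 0.34 that was not called (adjusted p = 0.116). It was called under normexp background correction (0.95, adjusted p = 0.0415), in the deposited matrix (0.89, adjusted p = 0.0253) and with no scaling between arrays (1.03, adjusted p = 0.0134), where the median of all genes was itself 0.446. Hemin without surgery gave 2.16, 2.00, 2.71 and 2.21. All 4 lay above Control replicates 1, 3 and 4 and below Control replicate 2. In descending order the means were IPC+IRI 4.11, IRI+Hemin 3.83, IRI 3.16, Hemin 2.27 and Control 1.94, and among neighbours in this order the arrays were apart between IRI and Hemin and overlapped in the other 3 steps.

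Hspa1b, read by probes that both copies match, gave the same order at other levels. It was at -0.90, 0.35, -0.67 and -0.85 in Control and at 0.28, 0.52, 0.15 and 1.40 in IRI. The difference was 1.10 ± 0.35 on the log2 scale (2.15-fold, adjusted p = 0.0138), with Control replicate 2 inside the IRI range, and 1.39 without that array (adjusted p = 0.00299). Without IRI replicate 4 the change was 0.83 (adjusted p = 0.0583), so that array carried the call. IPC+IRI (1.93, 1.15, 1.08 and 0.68) was higher than Control by 1.73 ± 0.35 (adjusted p = 0.000461), and IRI+Hemin (0.90, 0.72, 1.06 and 1.95) by 1.67 ± 0.35 (adjusted p = 0.00057). All 8 of these arrays lay above all 4 Control arrays. Without Control replicate 2 these differences were 2.02 and 1.96, and those of Hspa1a 2.51 and 2.24. Differences of 0.62 ± 0.35 and 0.57 ± 0.35 from IRI were not called (adjusted p = 0.156 and 0.194), although the first was 0.89 without IRI replicate 4 (adjusted p = 0.0491). Both were called in the deposited matrix (1.08 and 1.06, adjusted p = 0.0328 each) and with no scaling (0.94 each, adjusted p = 0.0445 and 0.042), beside medians of 0.41 and 0.446 over all genes without scaling.

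Hspa8, the HSP70 that cells make without stress, stayed between 5.70 and 6.22 on all 20 arrays. Its group means ran from 5.85 ± 0.21 in IRI+Hemin to 6.11 ± 0.13 in Control (SD, n = 4). It passed the threshold in none of the 8 tests of the fit, its unadjusted p being under 0.05 in 1 of them, and the change in IRI against Control was -0.17 ± 0.12 (adjusted p = 0.224), beside a median of -0.17 over all genes. Under quantile normalization and under the percentile over detected probes Hspa8 was called lower than Control in IRI (-0.25 both times, adjusted p = 0.0429), IPC+IRI (-0.29 and -0.27, adjusted p = 0.0147 and 0.0329) and IRI+Hemin (-0.38 both times, adjusted p = 0.00277 and 0.00404), and without IRI+Hemin replicate 4 it was lower in IRI+Hemin than in Control (-0.37, adjusted p = 0.00814).

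Hspb1, the small heat shock protein HSP25 that guards actin and holds unfolded clients, had the widest change of the set. Control arrays were at 0.81, 1.22, 0.34 and 0.58 and IRI arrays at 3.1, 3.27, 3.23 and 3.73. The groups were far apart, with a log2 fold change of 2.60 ± 0.29 (6.06-fold, adjusted p = 1.43e-06). Unlike Hspa1a, Hspb1 was lower after preconditioning, at 1.96, 2.46, 3.19 and 2.23. The difference between IPC+IRI and IRI was -0.88 ± 0.29 (1.84-fold lower, adjusted p = 0.0192), with IPC+IRI replicate 3 inside the IRI range. This call was lost without IRI replicate 4 (-0.74, adjusted p = 0.0618), without IPC+IRI replicate 1 (-0.71, adjusted p = 0.0668), without IPC+IRI replicate 4 (-0.80, adjusted p = 0.0501) and under normexp background correction, no scaling and the deposited matrix. IRI+Hemin was at 2.93, 3.04, 2.84 and 1.86, below every IRI array, yet its difference of -0.67 ± 0.29 was not called (adjusted p = 0.0662) unless IRI+Hemin replicate 2 (-0.79, adjusted p = 0.0486) or IPC+IRI replicate 3, an array of a group not compared (-0.67, adjusted p = 0.0429), was left out. Against Control, both protected groups were higher, IPC+IRI by 1.72 ± 0.29 (adjusted p = 7.72e-05) and IRI+Hemin by 1.93 ± 0.29 (adjusted p = 2.32e-05). Hemin alone (0.30, -0.23, 0.59 and -0.01) gave -0.57 ± 0.29, not called (adjusted p = 0.125).

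Hspb8, the small heat shock protein that works with BAG3, was at -2.37, -1.50, -2.01 and -1.90 in Control and at -1.31, -1.45, -1.40 and -0.47 in IRI. The groups did not overlap, although 3 IRI arrays lay just above the highest Control array, and the log2 fold change was 0.79 ± 0.21 (1.73-fold, adjusted p = 0.00528), or 0.60 in the deposited matrix (adjusted p = 0.0561) and 0.91 with no scaling (adjusted p = 0.0506). It was highest in IRI+Hemin, at -0.30, -0.67, -0.39 and -0.90, where it exceeded IRI by 0.59 ± 0.21 (adjusted p = 0.0319). The call against IRI was lost without IRI replicate 1 (0.54, adjusted p = 0.0775), 2 (0.49, adjusted p = 0.0949) or 3 (0.51, adjusted p = 0.0900), without IRI+Hemin replicate 1 (0.50, adjusted p = 0.0894) or 3 (0.54, adjusted p = 0.0760), and with the replicate number as a block (0.59, adjusted p = 0.0527). Normexp background correction took it to 0.14 (adjusted p = 0.524). The call was also lost with the percentile over detected probes (0.56, adjusted p = 0.0517), with only the arrays compared in the fit (0.59, adjusted p = 0.0792) and without the arrays highest in fat markers (0.58, adjusted p = 0.0906). IPC+IRI (-1.03, -0.70, -0.71 and -1.18) was higher than Control by 1.04 ± 0.21 (adjusted p = 0.000532) and was not called against IRI (0.25 ± 0.21, adjusted p = 0.351), or 0.48 without IRI replicate 4 (adjusted p = 0.0460).

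Bag3, the exchange factor that links HSP70 to autophagy, had the smallest adjusted p of the set. It was at 0.75, 0.97, 0.90 and 0.77 in Control, 2.43, 2.86, 2.74 and 2.45 in IRI and 2.38, 2.82, 2.66 and 2.58 in IPC+IRI. Every array after ischemia lay far above Control, by 1.77 ± 0.11 in IRI (3.42-fold, adjusted p = 3.99e-09) and by 1.76 ± 0.11 in IPC+IRI (adjusted p = 4.99e-09), and IPC+IRI and IRI differed by -0.01 ± 0.11 (adjusted p = 0.941). With Hemin alone it was at 1.30, 1.16, 1.32 and 1.27, above all Control arrays, by 0.41 ± 0.11 (1.33-fold, adjusted p = 0.00861). In IRI+Hemin it read 2.33, 2.27, 2.22 and 2.19, below all IRI arrays, by -0.37 ± 0.11 (adjusted p = 0.0134), or -0.29 (adjusted p = 0.0532) without IRI replicate 2, 0 with no scaling between arrays, -0.17 in the deposited matrix (adjusted p = 0.296) and -0.21 with log2 probe values averaged (adjusted p = 0.171). Under normexp background correction and with log2 probe values averaged, the calls for Hemin alone (0.40 and 0.23) were lost as well. The rise with ischemia was thus 0.99 ± 0.11 under Hemin and 1.77 ± 0.11 without it, a difference of -0.78 ± 0.16 in the interaction test (adjusted p = 0.00569), which was no longer called under normexp (-0.73), no scaling (-0.98) or averaged log2 probe values (-0.44).

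Dnajb1, the J protein HSP40, was at 2.22, 3.48, 2.78 and 2.38 in Control and at 2.65, 3.22, 2.56 and 2.91 in IRI. The groups overlapped and the change of 0.12 ± 0.22 was not called (adjusted p = 0.660), nor was the 0.38 without Control replicate 2 (adjusted p = 0.0793). In the deposited matrix, where the 3′ probe was blank on 1 array and the 5′ probe alone was used, Dnajb1 was called higher in IRI (0.68, adjusted p = 0.00991). IPC+IRI (3.65, 3.23, 3.13 and 3.23) and IRI+Hemin (3.16, 3.37, 3.30 and 3.52) were higher than Control by 0.60 ± 0.22 (adjusted p = 0.0254) and 0.62 ± 0.22 (adjusted p = 0.0198), with Control replicate 2 inside both ranges. Both calls were lost without Control replicate 1 (0.43 and 0.46, adjusted p = 0.104 and 0.0834) or Control replicate 4 (0.49 and 0.51, adjusted p = 0.0877 and 0.0707), the first also without IPC+IRI replicate 1 (0.48, adjusted p = 0.0818) and the second without IRI+Hemin replicate 4 (0.56, adjusted p = 0.0506). Quantile normalization (0.43 and 0.46) and a fit of only the arrays compared ended both as well. Hemin alone (3.07, 3.27, 3.40 and 3.34) gave 0.56 ± 0.22 (adjusted p = 0.0517), which became 0.81 without Control replicate 2 (adjusted p = 0.0014), and was called under normexp (0.66, adjusted p = 0.035) and with no scaling (1.12, adjusted p = 0.0013). Against IRI, the differences of 0.47 ± 0.22 in IPC+IRI and 0.50 ± 0.22 in IRI+Hemin were not called (adjusted p = 0.0833 and 0.0684), but were without IRI replicate 2 (0.60 and 0.63, adjusted p = 0.0415 and 0.0349), without Control replicate 2 (0.47 and 0.50, adjusted p = 0.023 and 0.0169) and with no scaling (0.79 and 0.86). The probes of Dnajb1 gave different answers, described below.

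Hspe1 and Hspd1 encode HSP10 and HSP60, the lid and the barrel of the chaperonin that folds proteins in the mitochondrial matrix. Hspe1 was at 4.04, 4.67, 4.15 and 3.95 in Control, 3.68, 4.12, 3.94 and 3.40 in IRI and 4.81, 4.33, 4.60 and 4.56 in IPC+IRI. All IPC+IRI arrays lay above all IRI arrays, by 0.79 ± 0.18 (1.73-fold, adjusted p = 0.00244). It was also higher in Hemin (4.81, 4.56, 4.66 and 4.75) than in Control, by 0.49 ± 0.18 (adjusted p = 0.0444). That call was lost without Control replicate 1, 3 or 4 (0.44, 0.48 and 0.41, adjusted p = 0.108, 0.0930 and 0.133) and without any 1 of the Hemin arrays (0.45 to 0.54), under normexp (0.63), quantile normalization (0.31) and the percentile over detected probes (0.38), while 0.65 was found without Control replicate 2 (adjusted p = 0.00803). In IRI it was -0.41 ± 0.18 against Control, not called (adjusted p = 0.0690), or -0.26 without Control replicate 2 (adjusted p = 0.239), -0.53 without IRI replicate 2 (adjusted p = 0.0319) and -0.50 without Control replicate 4 (adjusted p = 0.0467). It was called lower in IRI under quantile normalization (-0.54, adjusted p = 0.00702), the percentile over detected probes (-0.50, adjusted p = 0.0175) and in the deposited matrix (-0.60, adjusted p = 0.00618). IRI+Hemin (4.12, 3.35, 3.80 and 3.70) was lower than Hemin by -0.95 ± 0.18 (adjusted p = 0.000523), with no overlap. Against Control it was lower by -0.46 ± 0.18 (adjusted p = 0.0401), or -0.31 without Control replicate 2 (adjusted p = 0.147), -0.33 without IRI+Hemin replicate 2 (adjusted p = 0.145) -0.18 without the arrays highest in fat markers (adjusted p = 0.414) and 0.02 with no scaling between arrays.

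Hspd1 moved little. Its group means lay between 5.01 ± 0.16 in IRI and 5.35 ± 0.098 in Hemin (SD, n = 4), and IPC+IRI (5.53, 5.15, 5.34 and 5.27) was higher than IRI (4.79, 5.14, 5.14 and 4.99) by 0.31 ± 0.12 (1.24-fold, adjusted p = 0.0440). The nearest arrays of these groups were 5.15 and 5.14. The call was lost without IRI replicate 1 (0.23, adjusted p = 0.143) or 4 (0.30, adjusted p = 0.0752), without IPC+IRI replicate 1 (0.24, adjusted p = 0.133), 3 (0.30, adjusted p = 0.0775) or 4 (0.32, adjusted p = 0.0580), and when any of 6 arrays of the groups not compared was left out. Quantile normalization (0.19), averaged log2 probe values (0.19), the deposited matrix (0.16) and normexp (0.52) ended it too.

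Hsf1, the factor that switches the others on, was the member that was lower. It was at 3.05, 2.26, 2.88 and 2.39 in Control, at 2.25, 2.18, 2.24 and 2.15 in IRI, at 2.01, 1.42, 1.63 and 1.46 in IPC+IRI and at 1.63, 1.66, 1.54 and 1.66 in Hemin. The lowest Control array, 2.26, and the highest IRI array, 2.25, nearly touched, and the change of -0.44 ± 0.17 (adjusted p = 0.0357) lost its call when Control replicate 1 or 3 (-0.31 and -0.36, adjusted p = 0.138 and 0.108) or any 1 of the IRI arrays (-0.46 to -0.42) was left out. The changes of -1.02 ± 0.17 in IPC+IRI and in Hemin against Control were larger (adjusted p = 7.41e-05 and 0.000322), and IPC+IRI was below IRI by -0.58 ± 0.17 (adjusted p = 0.0104). IRI+Hemin (2.23, 2.33, 1.76 and 2.06) was below Control by -0.55 ± 0.17 (adjusted p = 0.00957) and above Hemin by 0.47 ± 0.17 (adjusted p = 0.0302), or 0.39 without IRI+Hemin replicate 2 (adjusted p = 0.0944), 0.43 without IRI+Hemin replicate 1 (adjusted p = 0.0752) and 0.44 without Hemin replicate 3 (adjusted p = 0.0687). The interaction was 0.91 ± 0.24 (adjusted p = 0.0244), or 0.83 and 0.89 without IRI+Hemin replicate 2 and Hemin replicate 3 (adjusted p = 0.0534 and 0.0523). These changes were mostly those of 1 of the 3 probes of Hsf1, as given below, and in the deposited matrix, where that probe was blank on 1 array and the other 2 were used, Hsf1 read -0.13 in IPC+IRI and -0.06 in Hemin against Control (adjusted p = 0.353 and 0.732), -0.18 in IRI and 0.10 in IRI+Hemin against Control, 0.05 in IPC+IRI against IRI, 0.15 in IRI+Hemin against Hemin and 0.33 in the interaction. With no scaling between arrays, too, none of these 7 changes was called lower or higher.

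**Figure D2:**
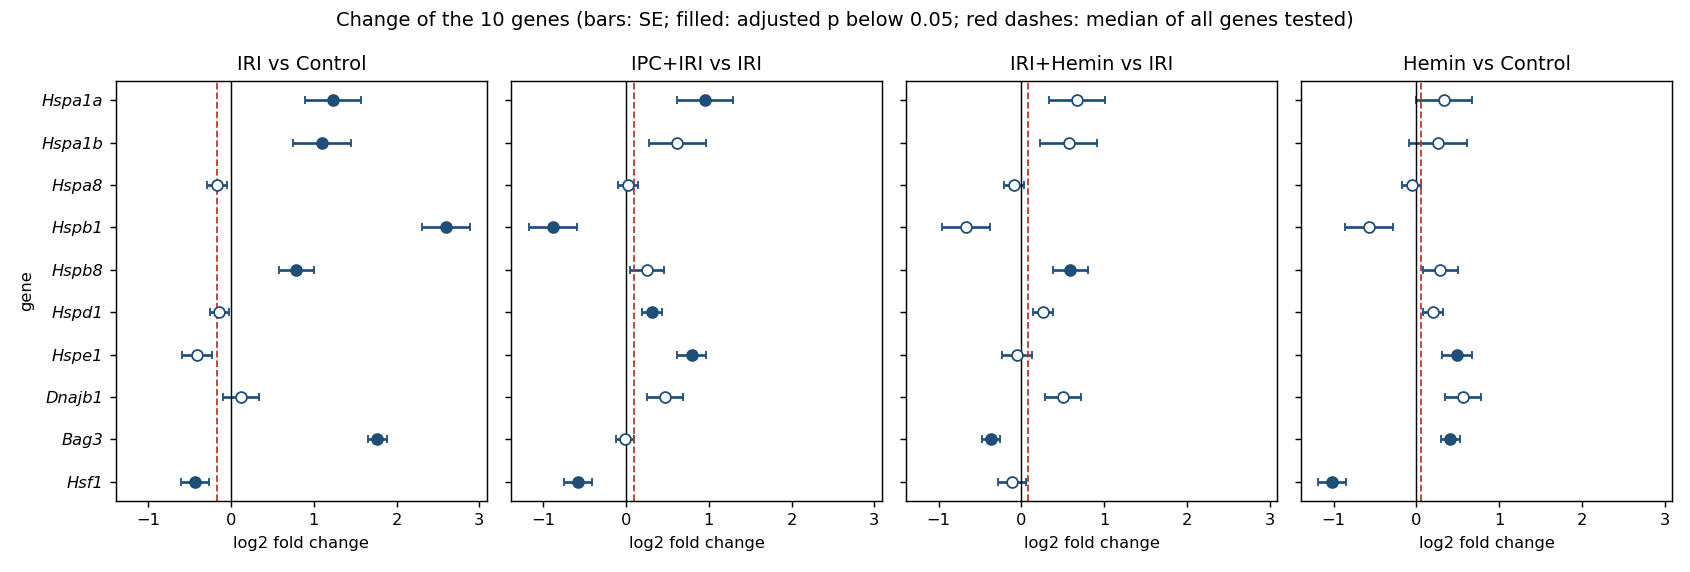
Log2 fold change (horizontal axis) of each of the 10 genes in 4 comparisons; bars are SE, filled points have an adjusted p below 0.05 and the red dashed line is the median of all genes tested. In IRI against Control the filled points at the right are Hspb1 at 2.60, Bag3 at 1.77, Hspa1a at 1.23, Hspa1b at 1.10 and Hspb8 at 0.79, and Hsf1 is on the left in all 4 panels, with an open point in IRI+Hemin against IRI.

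Preconditioned and injured kidneys differed from injured ones in both directions. Against IRI, 3 of the 10 genes were higher in IPC+IRI (Hspa1a, Hspd1 and Hspe1) and 2 lower (Hspb1 and Hsf1), beside 26.0% of all genes higher and 17.7% lower, shares near those of the set. The median change was 0.28 for the 10 genes and 0.09 over all genes. With the array highest in fat markers left out of every group, 2 were higher and 1 lower. All 3 erythrocyte markers were lower in IPC+IRI than in IRI, their summed level being 3.40 to 5.76 against 6.25 to 6.60, and their part in the result was not tested. Against Control, IPC+IRI kidneys had 6 genes higher and 1 lower, where 23.1% of all genes were higher and 32.6% lower. The 6 were Hspa1a, Hspa1b, Hspb1, Hspb8, Dnajb1 and Bag3, and without Control replicate 2 there were 8, Hspd1 (0.28, adjusted p = 0.0323) and Hspe1 (0.53, adjusted p = 0.0177) being added.

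In kidneys given Hemin before ischemia, 1 of the 10 was higher than in IRI (Hspb8) and 1 lower (Bag3), beside 26.1% and 18.0% of all genes. In the deposited matrix 3 were higher and 0 lower, both here and in IPC+IRI against IRI. There 77.7% and 73.3% of all genes called were higher, in place of 59.2% and 59.5%. Without Control replicate 2, which enters the test of IRI+Hemin against IRI only through the shared estimate of spread, 3 were higher, Dnajb1 (0.50, adjusted p = 0.0169) and Hspd1 (0.26, adjusted p = 0.0418) joining, and with the array highest in fat markers left out of every group none was higher. Against Control, 6 were higher and 2 lower (Hspe1 and Hsf1) in IRI+Hemin, beside 24.4% and 33.1% of all genes. The 6 carried the names of those in IPC+IRI, and both comparisons used the same 4 Control arrays.

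Hemin in unclamped kidneys was followed by 2 higher genes, Hspe1 and Bag3, and 1 lower, Hsf1, where 18.4% of all genes were higher and 17.5% lower. Without Control replicate 2, 4 were higher, with Hspd1 (0.31, adjusted p = 0.0290) and Dnajb1 (0.81, adjusted p = 0.0014) added. The inducible HSP70 pair was not called in either version, at 0.33 ± 0.34 for Hspa1a and 0.26 ± 0.35 for Hspa1b with all arrays (adjusted p = 0.464 and 0.592), and at 0.67 and 0.55 without Control replicate 2 (adjusted p = 0.0864 and 0.212). With no scaling Hspa1a was called (0.9, adjusted p = 0.0239), where the median of all genes was itself 0.622. Within Hemin-treated mice, 6 genes were higher in IRI+Hemin than in Hemin (Hspa1a by 1.56 ± 0.34, Hspa1b by 1.42 ± 0.35, Hspb1 by 2.50 ± 0.29, Hspb8 by 1.09 ± 0.21, Bag3 by 0.99 ± 0.11 and Hsf1 by 0.47 ± 0.17) and Hspe1 was lower, beside 16.4% of all genes higher and 27.8% lower. These groups lay on different slides and scan days. Hsf1 was called by its brightest probe (0.55, adjusted p = 0.0368) and not by the others (0.27 and 0.2, adjusted p = 0.135 and 0.128). The effect of ischemia differed with Hemin for 2 of the 10, Hsf1 upwards and Bag3 downwards, where 5.82% of all genes had a positive interaction and 1.95% a negative one.

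For 5 genes the probes disagreed when each was fitted alone across all probes. Of the 3 Hsf1 probes, the brightest (the sequence given above) read -0.53 ± 0.20 in IRI, -1.27 ± 0.20 in IPC+IRI and -1.25 ± 0.20 in Hemin against Control (adjusted p = 0.0404, 5.79e-05 and 0.000302). The probe at chr15:76331176-76331235 read 0.03 ± 0.10, -0.04 ± 0.10 and -0.08 ± 0.10, and the one at chr15:76331098-76331157 read -0.12 ± 0.14, -0.31 ± 0.14 and -0.37 ± 0.14, with an adjusted p of 0.0485 for Hemin and none below the threshold for IRI or IPC+IRI. The interaction was 1.08 ± 0.29 by the first probe (adjusted p = 0.0275) and 0.16 ± 0.15 and 0.39 ± 0.20 by the other two, neither called. In IRI and IPC+IRI the call for a lower Hsf1 thus rested on the brightest probe alone. That probe lists no RefSeq transcript in the array's annotation, while the other Hsf1 probes do.

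Bag3 rose with ischemia by both probes, by 1.81 ± 0.12 at the probe nearer the 3′ end (chr7:135690281-135690340) and by 1.16 ± 0.16 at the other. The rise with Hemin alone was 0.44 ± 0.12 at the first (adjusted p = 0.00727) and 0.01 ± 0.16 at the second (adjusted p = 0.951). The interaction likewise was -0.83 ± 0.17 (adjusted p = 0.00514) at the one and -0.05 ± 0.23 (adjusted p = 0.926) at the other, and the step from IRI to IRI+Hemin was -0.39 ± 0.12 (adjusted p = 0.012) and -0.04 ± 0.16 (adjusted p = 0.860). These 3 calls thus rest on 1 probe.

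Dnajb1 was called in IRI by its 5′ probe, the one whose sequence is given, at 0.87 ± 0.21 (adjusted p = 0.00236), and not by the 3′ probe (chr8:86135660-86135719), at -0.04 ± 0.23 (adjusted p = 0.909). Under Hemin alone the order was turned, with 0.12 ± 0.21 by the 5′ probe (adjusted p = 0.675) and 0.62 ± 0.23 by the 3′ probe (adjusted p = 0.0402). Both read a higher level in IPC+IRI (0.83 ± 0.21 and 0.56 ± 0.23) and in IRI+Hemin (0.68 ± 0.21 and 0.61 ± 0.23) than in Control. Against IRI the 3′ probe was called higher in IPC+IRI and IRI+Hemin (0.59 and 0.65, adjusted p = 0.0394 and 0.0253). The 5′ probe read -0.03 and -0.18 there (adjusted p = 0.909 and 0.489). The small step of Hspd1 between IRI and IPC+IRI was 0.36 ± 0.13 at its 3′ probe (chr1:55134829-55134888, adjusted p = 0.0349) and 0.02 ± 0.11 at the probe whose sequence is given (adjusted p = 0.876). Hspa8 was lower in IRI+Hemin than in Control by its probe at chr9:40612674-40612733 (-0.39 ± 0.15, adjusted p = 0.0316) and not by the one at chr9:40611142-40611201 (0.01 ± 0.15, adjusted p = 0.973).

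**Figure D3:**
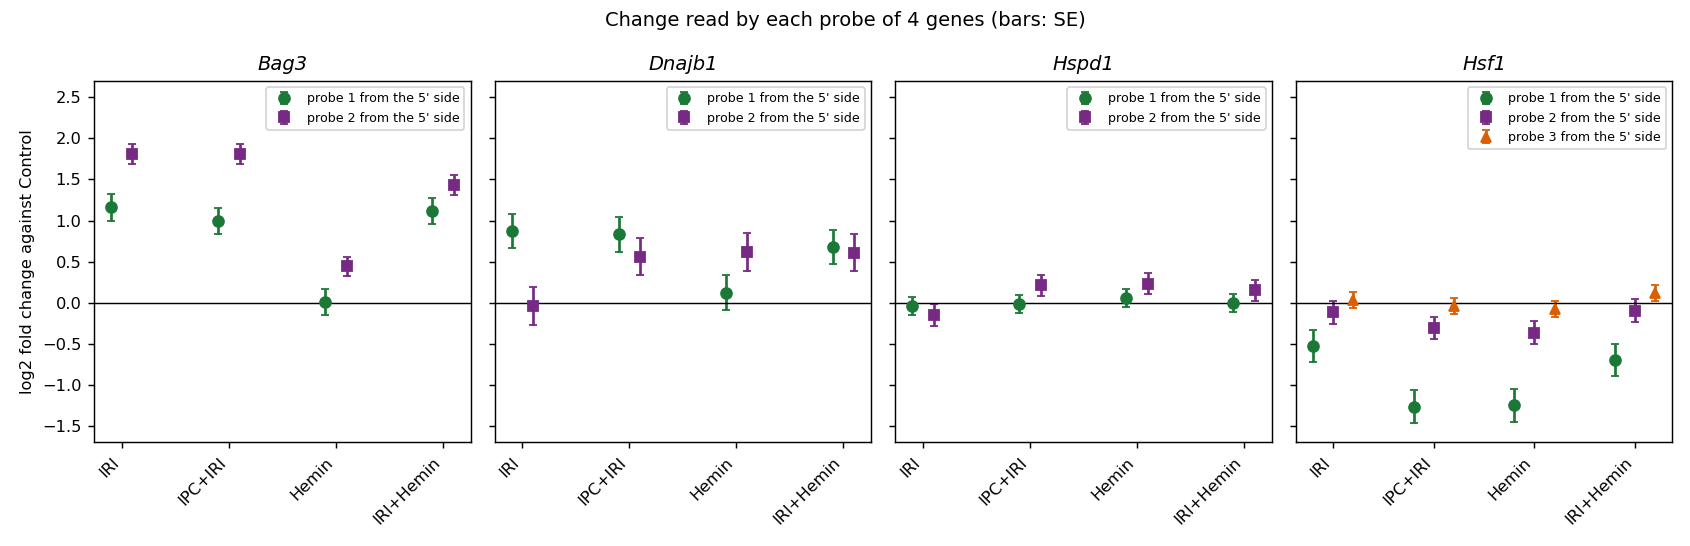
Log2 fold change against Control (vertical axis) read by each probe of Bag3, Dnajb1, Hspd1 and Hsf1 in the 4 other groups, with probes numbered from the 5′ side of the gene; bars are SE. Probe 1 of Hsf1 reaches -1.27 in IPC+IRI while probe 3 stays between -0.08 and 0.12, and the probes of Dnajb1 read 0.87 and -0.04 in IRI.

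The rest of the chaperone network was taken as 67 genes in 8 lists. Of the 64 that could be tested in IRI against Control, 18 were higher and 11 lower, and their median change was 0.13 on the log2 scale. In the deposited matrix 10 of 62 were higher and 17 lower, so the balance turned, and 9 were higher and 4 lower both under normexp and with no scaling. Over all genes tested, 17.0% were higher and 33.7% lower under the main scaling, with a median of -0.17. Of all genes called, 33.5% were higher there, 19.8% in the matrix (median of all genes -0.34) and 56.5% under normexp. The J proteins, which feed clients to HSP70, had 5 of 13 higher and none lower (3 higher and 2 lower in the deposited matrix), among them Dnajb4 (1.52 ± 0.21, adjusted p = 1.23e-05) and Dnajc5 (0.80 ± 0.11, adjusted p = 1.17e-05). Of the other small heat shock proteins, 3 of 6 tested were higher and 1 lower, with the lens crystallins Cryaa (1.59 ± 0.33, adjusted p = 0.000648) and Cryab (1.22 ± 0.23, adjusted p = 0.000368) in front and Hspb9 lower (-0.71 ± 0.16, adjusted p = 0.000998). Both exchange factors called, Bag2 (0.97 ± 0.089, adjusted p = 2.18e-07) and Bag5 (0.84 ± 0.22, adjusted p = 0.00375), were higher, out of 6. Under normexp the calls of Bag5 (0.71) and Hspb9 (-0.14) were lost.

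Of the 10 other HSP70 and HSP110 proteins, 2 were higher and 5 lower in IRI (none and 1 under normexp background correction), where 33.7% of all genes were lower, with Hspa12b at -1.48 ± 0.17 (adjusted p = 2.03e-06), Hspa12a at -1.12 ± 0.13 (adjusted p = 2.71e-06) and Hspa2 at -0.56 ± 0.18 (adjusted p = 0.0168). Under normexp Hspa12a was at -0.24 (adjusted p = 0.447) and Hspa2 at -0.21 (adjusted p = 0.411), and Hspa2 was not called with no scaling or quantile normalization either. Among HSP90 and its co-chaperones, 3 of 14 were higher, including Fkbp5, a steroid receptor co-chaperone (1.29 ± 0.30, adjusted p = 0.00174), and 5 lower (1 and 0 with no scaling), including Chordc1 (-0.64 ± 0.15, adjusted p = 0.00205) and Fkbp4 (-0.51 ± 0.14, adjusted p = 0.00571). Fkbp5 was not called in the deposited matrix (0.87, adjusted p = 0.085), nor Chordc1 (-0.52) and Fkbp4 (-0.39) with no scaling. In the endoplasmic reticulum 2 of 6 chaperones were higher, Dnajb9 and Hspa5, the HSP70 of that compartment. Of the CCT chaperonin, which folds actin and tubulin, 1 of 8 subunits was higher in IRI, Cct2 (0.31 ± 0.095, adjusted p = 0.0127). That call was lost under normexp (0.21), no scaling (0.43), quantile normalization (0.21) and in the deposited matrix (0). Against Control, 6 of the 8 were higher in IRI+Hemin, 5 in Hemin and 4 in IPC+IRI, each time with 1 lower, beside 24.4%, 18.4% and 23.1% of all genes higher in those comparisons. Cct2 was among the higher ones each time, but was not called in the deposited matrix, at 0.12, 0.08 and -0.06 (adjusted p = 0.639, 0.77 and 0.822), nor in Hemin under quantile normalization (0.25, adjusted p = 0.0558). Of 3 genes listed as other heat shock factors and their partners 1 was tested, Hsbp1, whose product binds HSF1 and which is named here after its values were seen. It was not called in IRI (-0.19 ± 0.11, adjusted p = 0.164), except as lower under quantile normalization (-0.31, adjusted p = 0.00576), the percentile over detected probes (-0.28, adjusted p = 0.0236) and in the deposited matrix (-0.38, adjusted p = 0.00708). It was higher than IRI in IPC+IRI (0.62 ± 0.11) and IRI+Hemin (0.51 ± 0.11), higher than Control in Hemin (0.62 ± 0.11), IPC+IRI (0.43 ± 0.11) and IRI+Hemin (0.31 ± 0.11), and lower in IRI+Hemin than in Hemin (-0.30 ± 0.11). The call in IRI+Hemin against Control was lost under normexp (0.26, adjusted p = 0.142), quantile normalization (0.15, adjusted p = 0.147) and the percentile over detected probes (0.19, adjusted p = 0.0941), and that against Hemin with no scaling (-0.39, adjusted p = 0.145).

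Between the treated groups the lists moved in both directions. Against IRI, 11 of 64 were higher and 12 lower in IPC+IRI, and 12 higher and 18 lower in IRI+Hemin, beside 26.0% and 17.7% of all genes in the one and 26.1% and 18.0% in the other. In the deposited matrix the counts were 17 higher and 8 lower of 62 in IPC+IRI, and 22 higher and 9 lower of 61 in IRI+Hemin, and with no scaling 16 and 2, and 19 and 4. All genes moved too. Of all genes called, 73.3% and 77.7% were higher in the matrix and 90.9% and 91.5% with no scaling, in place of 59.5% and 59.2%. Dnaja2, a J protein of the cytosol, was lower than IRI in both, by -1.04 ± 0.096 in IPC+IRI (adjusted p = 1.96e-06) and by -0.80 ± 0.096 in IRI+Hemin (adjusted p = 1.04e-05), and Cryaa likewise by -0.96 ± 0.33 (adjusted p = 0.0249) and -1.74 ± 0.33 (adjusted p = 0.00048). In the deposited matrix neither difference of Cryaa was called (-0.39 and -0.78), and with no scaling neither Cryaa in IPC+IRI (-0.65) nor Dnaja2 in IRI+Hemin (-0.44) was. Hspa12b went the other way in IRI+Hemin, at 1.24 ± 0.17 against IRI (adjusted p = 2.92e-05), or 0.39 under normexp (adjusted p = 0.081). In IPC+IRI it was at -0.07 ± 0.17 (adjusted p = 0.755). Hspa4l was higher than IRI in IPC+IRI, by 0.59 ± 0.11 (adjusted p = 0.000482). Both comparisons share the IRI arrays. Hemin against Control gave 11 of 65 higher and 14 lower, IPC+IRI against Control 23 of 64 higher and 13 lower, IRI+Hemin against Control 24 and 20, IRI+Hemin against Hemin 9 and 11 of 65, and the interaction 1 and 1 of 65. These counts moved with the scaling. With no scaling and with the percentile over detected probes, Hemin against Control gave 33 higher and 0 lower, and 5 and 19, IRI+Hemin against Control 32 and 4, and 18 and 23, and IPC+IRI against Control 35 and 2, and 19 and 19. With no scaling, 94.8%, 77.4% and 75.2% of all genes called were higher in these comparisons, in place of 51.2%, 42.4% and 41.5%. With the percentile over detected probes it was 35% in Hemin against Control. Under the main scaling the shares over all genes, higher and lower, were 18.4% and 17.5% in Hemin against Control, 23.1% and 32.6% in IPC+IRI against Control, 24.4% and 33.1% in IRI+Hemin against Control, 16.4% and 27.8% in IRI+Hemin against Hemin, and 5.82% and 1.95% in the interaction.

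**Figure D4:**
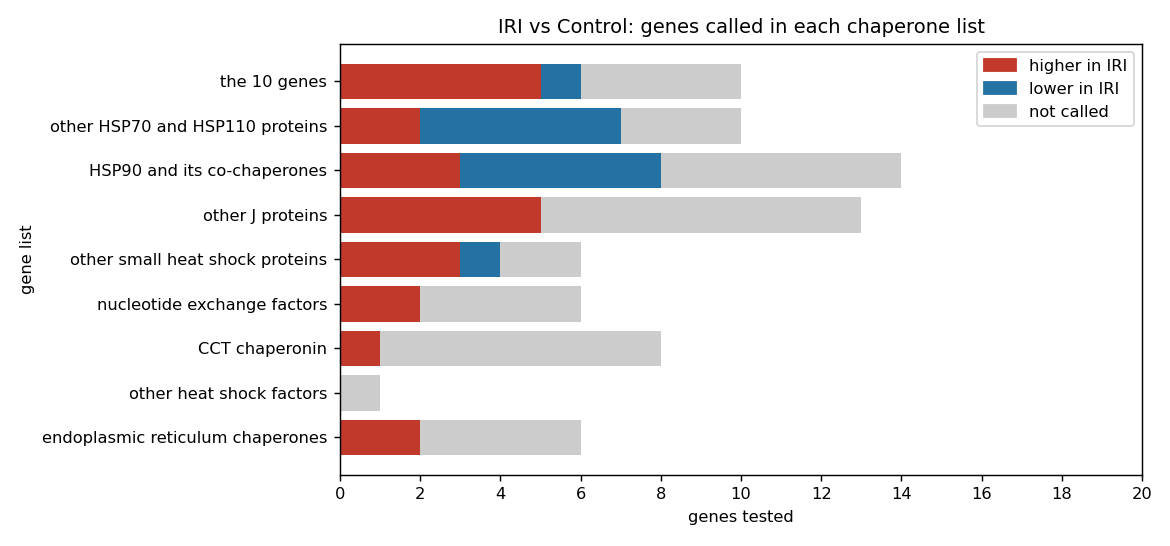
Number of genes tested in each chaperone list (horizontal axis) that were higher in IRI (red), lower in IRI (blue) or not called (grey) against Control. The 10 genes have 5 red and 1 blue, the J proteins 5 red and no blue, and the other HSP70 and HSP110 proteins 2 red and 5 blue.

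Likeness of pattern was taken as the root mean square difference, over 20 arrays, between 2 genes each centred on its own mean, among 14519 other genes well above background on all arrays. The nearest gene to both Hspa1a and Hspa1b was Chka, a choline kinase, at 0.345 and 0.366, against a spread of 0.956 and 0.846 in the members themselves. Nearest to Hspb1 was Edn1, the endothelin precursor, at 0.362 (own spread 1.27), and nearest to Bag3 was Ezr, the ezrin of the brush border, at 0.184 (own spread 0.739). Dnajb1 lay nearest to Immp2l (0.149) and then to Hsph1, the HSP110 that exchanges nucleotide on HSP70 (0.177, own spread 0.380). The mean level of Hsph1 was 3.37 ± 0.50 (SD, n = 4) without treatment, 3.60 ± 0.15 after IRI, 4.00 ± 0.12 and 3.99 ± 0.17 after IRI with Hemin or with IPC, and 3.78 ± 0.23 after Hemin alone. For Hsf1 the nearest were an unnamed transcript and then Trp53, at 0.132 and 0.134 (own spread 0.437). The profiles of Dnajb1 and Hsf1 were weighted to the brightest probe of each, from which other probes differed. Their likenesses may thus be those of 1 probe.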

How the data were processed

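Kidney RNA was measured in 20 samples on Agilent 4x44K one-colour arrays. The intensity values are the authors' scanner files, as deposited: Feature Extraction 9.5.3.1, per the file headers, subtracted the background, with probe positions on mm9. The log2 values of the matrix deposited by the authors were used as an alternative. Of their values, 100% fell within 0.001 of log2 of the same intensity over 33598 single-spot probes, so no step between arrays had been added, and 18.1% were blank.

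After control and outlier spots were dropped, replicate spots were reduced to 1 mean per probe and signals scaled to the 75th percentile of their array (146.7 to 357.9 intensity units, with 56.79% to 67.29% of probes well above background). The number of arrays limits the precision. Probes of a gene name were averaged on the linear scale before log2. A gene was tested with at most 1 missing value and at least 3 of 4 arrays of a compared group well above background. One model with 5 group means was fitted to all arrays in limma 3.58.1 (R 4.3.3), with Benjamini-Hochberg adjustment over all genes of a comparison and calls at adjusted p below 0.05. The study's methods used SAM with limits on fold change, which was not run here. The procedure was tested on simulated data. Alternatives covered background correction, scaling, the summary of probes, the filter, the arrays in the fit and the matrix, in which a gene kept its probes with the fewest blanks.

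The 10 genes, the gene lists and the markers were chosen with earlier results of these data known. All 10 genes are named. Of each list, up to 4 genes with the largest called change in IRI against Control and well above background on all arrays could be named, and for 6 genes the 3 most similar in pattern. Neither labels nor methods say whether each array was 1 animal, so p-values measure the spread between these samples, which may be technical. Same-numbered arrays are the same position on different slides, and their deviations correlated from -0.32 to 0.15, so the numbers were not taken as pairs.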

Additional observations from a re-analysis of the deposited data

Results flagged for a closer look

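In 5 of 50 sets of 4 arrays (10 genes in 5 groups), 1 array stood apart from the other 3 by Dixon's test at 95%, where chance would give about 1 in 20. Hspa1a in Control replicate 2 was at 2.96, with the others between 1.5 and 1.68. Hspa1b in Hemin replicate 3 was at 0.34, the others lying between -0.49 and -0.38. Hspa8 in IRI+Hemin replicate 4 was at 6.15, against 5.70 to 5.78. On that same array Hspb1 was low, at 1.86, against 2.84 to 3.04. Hspb8 in IRI replicate 4 was at -0.47, while the remaining IRI arrays were between -1.45 and -1.31.

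Bag3 and Hsf1 differed between Hemin-treated and untreated mice in the effect of ischemia, by -0.78 ± 0.16 and 0.91 ± 0.24 on the log2 scale (limma, adjusted p = 0.00569 and 0.0244). Each of these rests on 1 probe of the gene, the others giving -0.05 for Bag3 and 0.16 and 0.39 for Hsf1.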

How the results depend on the processing

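Counts of the 10 genes are given here as higher and lower. With 1 array left out at a time they ran from 4 to 5 and 0 to 2 in IRI against Control, 1 to 4 and 1 to 2 in IPC+IRI against IRI, 5 to 8 and 1 to 1 in IPC+IRI against Control, 0 to 3 and 0 to 2 in IRI+Hemin against IRI, 1 to 4 and 1 to 1 in Hemin against Control, 5 to 6 and 1 to 3 in IRI+Hemin against Control, 5 to 6 and 1 to 2 in IRI+Hemin against Hemin, and 0 to 1 and 1 to 1 in the interaction. The counts of 5 higher in IRI, 6 higher in IRI+Hemin and 6 higher in IPC+IRI against Control stayed within 1.5 times under the other alternatives. The genes counted were not always the same. In IRI against Control in the deposited matrix, Hspb1 could not be tested, Hspb8 lost its call and Dnajb1 gained one.

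IRI against Control had 0 lower under normexp background correction, no scaling, mean of log2 probe values, no filter on dim genes, only the arrays compared, and every probe called when fitted alone, and 3 lower under quantile normalization and under the percentile over probes well above background on all arrays. IPC+IRI against IRI had 5 higher with no scaling, 0 lower with no scaling and in the deposited matrix, and 1 lower under normexp, with every probe called, and without the array of each group highest in adipose markers, an alternative chosen after seeing the data. IPC+IRI against Control had 0 lower with no scaling, in the matrix and with every probe called, and 2 lower under both quantile normalization and the percentile over detected probes. IRI+Hemin against IRI had 5 higher with no scaling, 3 in the matrix, 2 under normexp and with the probe of highest mean signal, and 0 under the percentile over detected probes, with the replicate block and without the adipose arrays; it had 0 lower under normexp, no scaling, mean of log2 values, the matrix, only the arrays compared and every probe called. Hemin against Control had 7 higher with no scaling, 4 without the adipose arrays, and 1 under normexp, quantile normalization, the percentile over detected probes, mean of log2 values, no filter, the replicate block and every probe called; it had 0 lower with no scaling, in the matrix and with every probe called. IRI+Hemin against Control had 1 lower under normexp, mean of log2 values, the matrix, the replicate block, every probe called and without the adipose arrays, and 0 with no scaling and only the arrays compared. IRI+Hemin against Hemin had 2 lower under quantile normalization. The interaction had 0 higher with no scaling, in the matrix, with every probe called and without the adipose arrays, and 0 lower under normexp, no scaling, mean of log2 values and every probe called.

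Among values called in at least 1 of the 2 versions, directions turned for Hspa8 in Hemin against Control (0.51) and Hspe1 in IRI+Hemin against Control (0.02) with no scaling, for Hsf1 in IRI (0.03) and IRI+Hemin (0.12) against Control by its 3′ probe alone, and for Hsf1 in the matrix in IPC+IRI against IRI (0.05) and IRI+Hemin against Control (0.10). Uncalled values that crossed 0 are not listed. The causes were not tested. With no scaling the median of all genes was itself 0.622 in Hemin against Control, and 94.8% of called genes were higher in place of 51.2%. In IRI against Control, 56.5% of called genes were higher under normexp and 19.8% in the matrix, in place of 33.5%. In IPC+IRI and IRI+Hemin against IRI, 90.9% and 91.5% were higher with no scaling, in place of 59.5% and 59.2%.

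The replicate number as a block ended 4 calls of 80 values, Hspb8 in IRI+Hemin against IRI (0.59, adjusted p = 0.0527), Hspd1 in IPC+IRI against IRI (0.31, adjusted p = 0.0629), and Hspe1 in Hemin (0.49, adjusted p = 0.0589) and IRI+Hemin (-0.46, adjusted p = 0.0524) against Control, and changed no other call. Same-numbered arrays were most alike 4 times of 4 in IRI against Control alone, with correlations of 0.05 to 0.15. Slide as a random block was not run, since each group lay on 1 slide and it could not be fitted.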
